A study of Mus musculus with 25 samples.

Results

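The genes described here are 10 regulators and markers of pluripotency in mouse embryonic stem (ES) cells that are not tied to the naive state alone: Pou5f1, Sox2, Sall4, Utf1, Lin28a, Lin28b, Dppa2, Dppa4, Dppa5a and Tdh. They were taken by name, as the rows of the count table whose Ensembl identifier maps to these symbols, and all 10 were found among 48440 gene rows. The study introduced β-catenin hotspot mutations into ES cells, and the question addressed here is how these transcripts responded to graded activation of the pathway by an inhibitor and by mutations of different strength. Transcripts were counted by mcSCRB-seq, a bulk method that reads 3′ ends and tags every molecule with an identifier (UMI), in 25 libraries of the feeder-free line E14, maintained in serum with leukemia inhibitory factor. In 10 of them the cells were unedited and received 0, 2.5, 5, 7.5 or 10 µM CHIR99021 (Chiron in the labels) for 48 h, with 2 libraries per dose. The other 15 each came from a single clone without inhibitor, heterozygous for 1 of 11 missense mutations in exon 3 of Ctnnb1. The class of strong mutations held 9 clones: S37A A10, S37C G12, S37F H2, S37F G1, S37Y A5, T41A C1, T41A E6, T41I B9 and T41I A6. The medium class held S45F C1, S45F D9 and S45P G5, and the weak class held T41S H8, T41N D3 and S45C D3. These are the high, medium and low classes of the study, which drew them by clustering these same libraries. They follow the order of the mutations in its reporter screen. The p-values between classes are therefore not independent evidence that the classes differ. Each clone is 1 picked colony, 7 of the 11 mutations have a single clone, and nothing in the labels says that the libraries of a dose came from separate cultures, so p-values measure the spread between libraries.

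β-catenin, the product of Ctnnb1, is the transcriptional effector of canonical Wnt signaling. GSK3 phosphorylates its amino-terminal end, which marks it for destruction, and CHIR99021 blocks this kinase, whereas missense changes at codons 37, 41 and 45 remove or disturb the phosphorylated residues themselves. Stabilised β-catenin binds TCF and LEF factors on DNA, and in ES cells it is known to relieve repression by TCF7L1 and so to favour self-renewal. Pou5f1 (OCT4) and Sox2 encode the transcription factors at the core of the pluripotency network, and Sall4 encodes a zinc finger factor that acts with them. UTF1, DPPA2 and DPPA4 are chromatin proteins, LIN28A and LIN28B are RNA-binding proteins that block maturation of let-7 microRNAs, DPPA5A is a KH-domain RNA-binding protein, and TDH is the mitochondrial threonine dehydrogenase on which mouse ES cells depend.

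Libraries held 306157 to 2083398 counts, so that a count of 0 allowed up to 1.44 to 9.80 CPM (counts scaled to a common library total) at 3 counts, counting error only. All 10 genes passed the filter on low counts in the main fits. Pou5f1, Dppa2 and Lin28b did not pass it in every alternative fit of the dose series. For depth, 6 members were sampled deeply, with totals over the 25 libraries of 8255 (Dppa4), 11876 (Sall4), 13212 (Utf1), 18037 (Sox2), 22635 (Dppa5a) and 23973 counts (Tdh). Lin28a (5310 counts) and Dppa2 (2613) were intermediate. Pou5f1 (587 counts) and Lin28b (565) were sparse, with 4 to 54 and 2 to 62 counts per library. For Pou5f1 on chromosome 17 (GRCm38, 35506018 to 35510772, plus strand), the antisense gene Gm19553 covers 170 of the 500 bases at the 3′ end, which a 3′ protocol reads, and whether the counting used strand is not given in the sources used here. The part of this overlap in the low Pou5f1 counts was not tested. Dppa5a on chromosome 9 (78367052 to 78368177, minus strand) has copies whose transcripts match its last 500 bases at 95% identity or more over at least 200 bases, among them the processed pseudogene Gm6083 with 969 counts and Pigp with 838. Reads of Dppa5a may have been split with these.

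Mitochondrial transcripts took 0.485 to 0.562% of the counts in 4 unedited libraries (0 µM replicate 2 and replicate 1 at 2.5, 5 and 10 µM), 0.986 to 1.46% in the other 6, and 1.53 to 2.52% in the clones, so that this share overlaps between doses but not between clones and unedited cells.

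The sequences upstream of the start of transcription were examined for the members whose promoter was listed by RefSeq (GRCm38.p6), which were 5 of 10: Pou5f1, Sox2, Utf1, Lin28a and Lin28b. The windows were restricted to bases upstream of both the RefSeq and the GENCODE start, and the Lin28b window was left out because it lay inside the GENCODE gene. Shown here are the 3 members of this group that fell with CHIR99021, with matches to a TCF/LEF motif in capitals. The motif was CTTTG followed by 2 bases that are each A or T, on either strand. Each sequence reads 5′ to 3′ on the strand of its gene, from chr7:139943606-139943788 (plus) for Utf1, chr3:34649745-34649994 (plus) for Sox2 and chr4:134018842-134019066 (minus) for Lin28a.
Utf1: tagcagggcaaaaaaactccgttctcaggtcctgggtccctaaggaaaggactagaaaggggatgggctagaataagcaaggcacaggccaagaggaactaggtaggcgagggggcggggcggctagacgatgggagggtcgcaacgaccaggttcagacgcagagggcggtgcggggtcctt
Sox2: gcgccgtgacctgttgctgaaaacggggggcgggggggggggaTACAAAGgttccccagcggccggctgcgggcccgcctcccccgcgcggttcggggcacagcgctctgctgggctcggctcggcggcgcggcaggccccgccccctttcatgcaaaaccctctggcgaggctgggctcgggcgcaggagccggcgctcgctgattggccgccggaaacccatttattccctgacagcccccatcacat
Lin28a: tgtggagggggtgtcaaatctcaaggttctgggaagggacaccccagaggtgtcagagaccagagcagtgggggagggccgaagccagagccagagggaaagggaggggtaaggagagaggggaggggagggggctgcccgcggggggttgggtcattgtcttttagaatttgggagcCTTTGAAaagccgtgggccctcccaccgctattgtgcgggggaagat
The Sox2 window held 1 match (on the opposite strand) and the Lin28a window held 1, whereas the 183 bases of Utf1 and 236 bases of Pou5f1 held 0. Of 32851 RefSeq promoters, 14.8% held such a match within 250 bases upstream. The octamer ATGCAAAT, on either strand, was found in 0 of these 4 windows and in 1.6% of all promoters. A match describes letters in the window and says nothing of binding.

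With increasing CHIR99021, 6 of the 10 genes fell and 1 rose. Utf1 fell most, from a mean of 614 CPM without inhibitor to 199 CPM at 10 µM, and Dppa2, Dppa4, Dppa5a, Lin28a and Sox2 fell by less. Tdh rose from 297 to 522 CPM. Sall4, Pou5f1 and Lin28b did not pass the test. Across all 10033 genes tested, 12.5% were called in this comparison (5.89% higher, 6.63% lower), against 7 of the 10 members. The median slope of the 10 members was −0.056 on the log2 scale per µM and that of all genes tested was 0.00084. Of 7091 genes whose mean level reached 20 CPM, 11.5% lay below and 7.95% above both untreated libraries in all 8 treated ones, as Sox2, Utf1, Lin28a, Dppa4 and Dppa5a (below) and Tdh (above) did. The test was edgeR's quasi-likelihood test on dose in µM over the 10 unedited libraries, with Benjamini-Hochberg adjustment over all genes tested, and slopes are log2 per µM with their standard error.

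**Figure D1:**
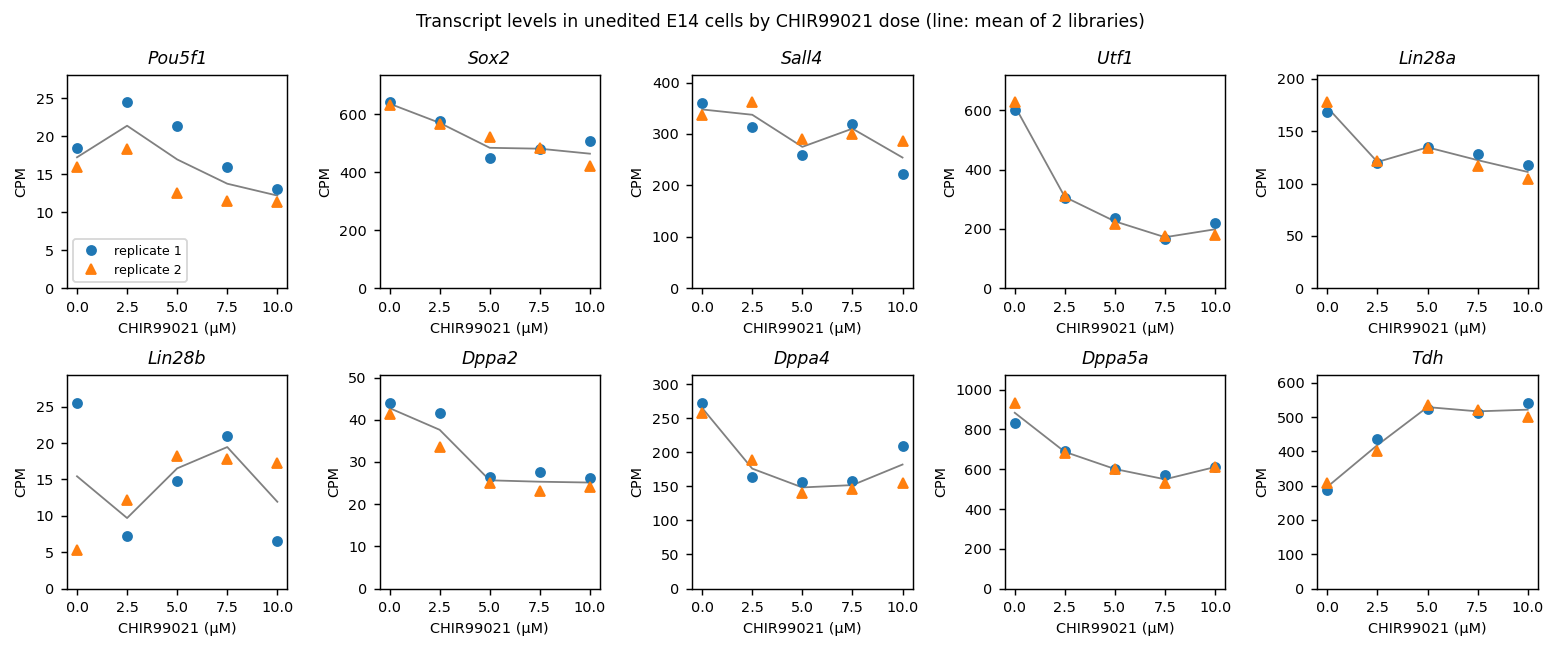
Level of each of the 10 genes (CPM, y axis, from 0) against CHIR99021 dose (µM, x axis) in unedited E14 cells, with 1 point per library and a line through the mean of the 2 libraries. Utf1 fell from 602 and 626 CPM to 305 and 310 CPM at 2.5 µM, and Tdh reached 523 and 536 CPM at 5 µM and stayed near that level.

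Of the core factors, Sox2 was at 640 and 632 CPM without inhibitor, 575 and 565 CPM at 2.5 µM, 447 and 520 at 5 µM, 479 and 483 at 7.5 µM, and 506 and 421 CPM at 10 µM. Every library with inhibitor lay below both untreated libraries. The slope was −0.049 ± 0.012 (edgeR, adjusted p = 0.00495), which amounts to a 1.40-fold lower level over 10 µM. Sall4 was at 359 and 336 CPM without inhibitor and at 222 and 286 CPM at 10 µM, but the 2.5 µM libraries (313 and 361 CPM) overlapped the untreated ones. Its slope of −0.036 ± 0.012 did not pass (adjusted p = 0.0527), and it did pass with the mitochondrial share as a covariate (adjusted p = 0.0047). Pou5f1 was at 18.5 and 15.9 CPM without inhibitor and at 13.1 and 11.3 CPM at 10 µM. Its slope, −0.066 ± 0.033 (adjusted p = 0.216), carried a larger error than that of Sox2, and a change was not detectable at this depth.

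Of the chromatin proteins, Utf1 was at 602 and 626 CPM without inhibitor, 305 and 310 CPM at 2.5 µM, 235 and 216 at 5 µM, 168 and 176 at 7.5 µM, and 219 and 178 CPM at 10 µM. The mean was already at 307 CPM at the lowest dose with inhibitor, and no treated library overlapped the untreated ones. The slope was −0.18 ± 0.018 (edgeR, adjusted p = 2.98e-08), a 3.58-fold lower level over 10 µM on the fitted line. Dppa2 was at 44.0 and 41.5 CPM without inhibitor and 41.7 and 33.5 CPM at 2.5 µM, and from 5 to 10 µM all 6 libraries lay between 23.0 and 27.6 CPM. Dppa4, which lies 9670 bases from Dppa2 on chromosome 16, was at 273 and 257 CPM without inhibitor and at 164 and 188 CPM at 2.5 µM. It was at 156 and 141 CPM at 5 µM, 157 and 146 at 7.5 µM, and 209 and 155 CPM at 10 µM. The Dppa4 library at 209 CPM is the shallowest of the series. Dppa2 had a slope of −0.094 ± 0.023 (adjusted p = 0.0054) and Dppa4 one of −0.070 ± 0.017 (adjusted p = 0.00495). Both calls were lost when untreated replicate 1 was left out, with slopes of −0.087 (adjusted p = 0.074) and −0.052 (adjusted p = 0.113).

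Of the RNA-binding proteins, Dppa5a was at 833 and 935 CPM without inhibitor, 694 and 681 at 2.5 µM, 599 and 603 at 5 µM, 569 and 530 at 7.5 µM, and 611 and 612 CPM at 10 µM. All treated libraries were below both untreated ones, and the slope was −0.057 ± 0.013 (adjusted p = 0.0022). Lin28a was at 168 and 178 CPM without inhibitor and between 105 and 135 CPM in the 8 treated libraries, which did not overlap the untreated ones. It showed no further ordered step with dose, its 2.5 µM libraries (119 and 122 CPM) lying below those at 5 µM (135 and 134 CPM). The slope was −0.056 ± 0.014 (adjusted p = 0.0086), and without either untreated library it no longer passed (slope −0.051, adjusted p = 0.082 without replicate 1 and slope −0.045, adjusted p = 0.076 without replicate 2). Lin28b had 25.5 and 5.32 CPM in the untreated libraries (Wilson intervals 19.2 to 34.0 and 2.27 to 12.4 CPM), a spread beyond counting error that covers every treated library, and a slope of 0.012 ± 0.040 (adjusted p = 0.893).

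Tdh, the threonine dehydrogenase, was the member that rose. It was at 286 and 307 CPM without inhibitor, 435 and 402 at 2.5 µM, 523 and 536 at 5 µM, 514 and 520 at 7.5 µM, and 542 and 502 CPM at 10 µM. No treated library overlapped the untreated ones, and the slope was 0.078 ± 0.015 (adjusted p = 0.00053), a 1.72-fold higher level over 10 µM.

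Tested between neighbouring doses, the called changes of these genes lay in the first step. Between 0 and 2.5 µM, where 2.33% of all genes were called, Utf1 changed by −0.97 ± 0.13 on the log2 scale (adjusted p = 2.2e-06), Dppa4 by −0.56 ± 0.14 (adjusted p = 0.0177) and Tdh by 0.52 ± 0.13 (adjusted p = 0.0187). Between 2.5 and 5 µM 0 members were called by edgeR (0.12% of all genes were), although 4 of them had an unadjusted p under 0.05: Utf1 (log2 change −0.46), Tdh (0.34), Dppa2 (−0.53) and Sall4 (−0.29). Between 5 and 7.5 µM (0.00997% of all genes called) 1 member, Utf1 (−0.40), had an unadjusted p under 0.05, and between 7.5 and 10 µM 0 had and edgeR called 0 of all genes.

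The untreated libraries and mitochondrial share bear on the dose result as follows. Within the 6 libraries of higher mitochondrial share all 7 members kept an adjusted p under 0.05 and their direction. Within the 4 of lower share, 1 per dose at 0, 2.5, 5 and 10 µM, Utf1 (slope −0.16, adjusted p = 0.00074) and Tdh (0.080, adjusted p = 0.046) did. These 4 are also the shallowest unedited libraries (306157 to 940544 counts, against at least 1311779 in the other 6). Share and depth therefore cannot be told apart in this split. When all libraries were thinned to the size of the smallest, 4 members were called. Sox2 (slope −0.040, adjusted p = 0.095) and Dppa4 (−0.039, adjusted p = 0.320) no longer passed. Dppa2 fell below the filter on low counts there and was not tested. The 6 ES cell markers, Sox2 and Pou5f1 among them, summed to 1754 to 1800 CPM without inhibitor and 1191 to 1382 CPM at 10 µM. Fibroblast markers summed to 27.6 to 34.2 CPM without inhibitor, 83.3 to 89.2 CPM at 2.5 µM and 27.9 to 42.5 CPM at 10 µM. Primitive endoderm markers summed to 14.7 to 23.4 CPM without inhibitor and 12.05 to 39.2 CPM at 10 µM. The summed level of 6 mesendoderm markers, led by T, was 17.4 to 20.2 CPM without inhibitor and 133 to 160 CPM at 10 µM. The summed level of 5 trophectoderm markers, nearly all of it Krt8, moved from 146 to 156 CPM to 401 to 434 CPM, and that of the 5 neural markers from 75.0 to 81.9 CPM to 31.6 to 35.9 CPM. The part of these in the result was not tested, and in bulk RNA fewer cells of a type and less RNA per cell cannot be told apart.

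Among the clones, Dppa5a and Tdh were higher and Lin28b was lower in the strong than in the weak class. The other 7 genes, with Pou5f1, Sox2 and Sall4 among them, did not pass the test. Of 10452 genes tested, 29.8% were called between these classes (13.1% higher, 16.6% lower in strong clones), so that 3 of 10 members is close to the share among all genes. The median log2 change of the members was 0.097, against 0.0071 for all genes. Without a filter on low counts Sox2 passed as well (log2 change 0.37, adjusted p = 0.035). Of the 7091 genes of at least 20 CPM, 7.14% lay above and 7.18% below all weak clones in every medium and strong clone. Dppa5a and Tdh were among those above. Lin28b lay below all weak clones in the same way, but its mean of 17.7 CPM left it outside these 7091 genes. All 15 clones entered 1 fit with class as the predictor.

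**Figure D2:**
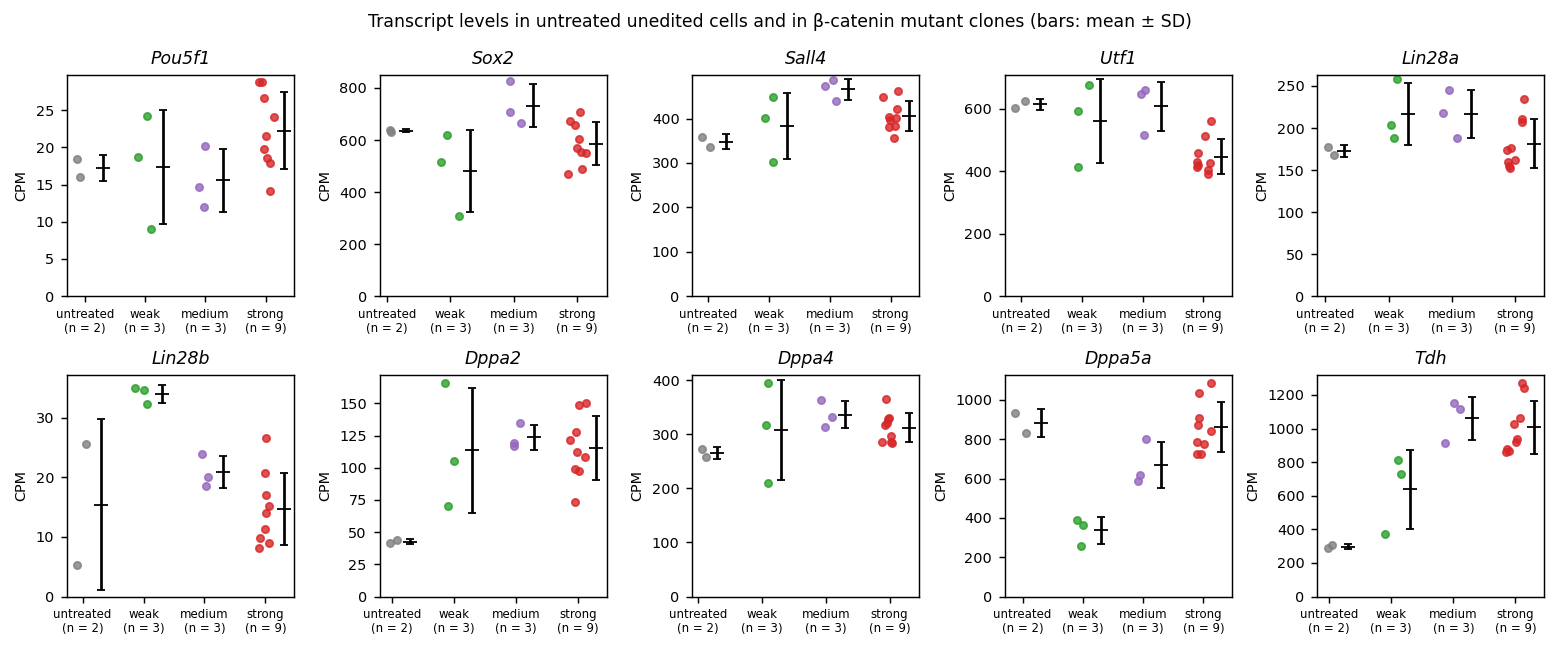
Level of each of the 10 genes (CPM, y axis, from 0) in the untreated unedited libraries and the weak, medium and strong mutant clones, with 1 point per library and bars for mean ± SD. The 3 weak clones have the lowest Dppa5a (256 to 388 CPM) and the highest Lin28b (32.3 to 35.0 CPM), and all clones lie above the untreated libraries for Dppa2 and Tdh, as 14.6% of genes of at least 20 CPM do.

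Dppa5a was at 388 (S45C), 365 (T41N) and 256 CPM (T41S) in the weak clones. In the medium clones it was at 802 and 616 CPM (S45F) and 590 CPM (S45P), and in the 9 strong clones at 724 to 1086 CPM with a median of 843 CPM. Weak clones did not overlap the other classes, and the strong and medium classes overlapped. The strong class was 2.61-fold higher than the weak class (log2 change 1.38 ± 0.15, adjusted p = 3.5e-07) and the medium class 1.99-fold higher (0.99 ± 0.17, adjusted p = 0.00067). Both calls held when any 1 clone was left out. The pseudogene Gm6083 was at 15.3 to 25.6 CPM in weak, 29.3 to 33.9 in medium and 28.6 to 45.6 CPM in strong clones, an order of classes in which reads shared with Dppa5a cannot be told apart from its own.

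Tdh was at 810 (S45C), 732 (T41N) and 370 CPM (T41S) in the weak clones, 1153 and 1118 CPM (S45F) and 914 CPM (S45P) in the medium clones, and 862 to 1271 CPM with a median of 939 CPM in the strong ones. Every medium and strong clone was above every weak one. The log2 change was 0.69 ± 0.17 between strong and weak (adjusted p = 0.0043) and 0.74 ± 0.21 between medium and weak clones (adjusted p = 0.0214). T41S clone H8 decided both calls: without it the changes were 0.41 (adjusted p = 0.073) and 0.47 (adjusted p = 0.172). The medium against weak call was also lost without S45F clone C1 (0.71, adjusted p = 0.073) or clone D9 (0.72, adjusted p = 0.070).

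Lin28b was at 34.7 (S45C), 32.3 (T41N) and 35.0 CPM (T41S) in the weak clones, 20.1 and 23.9 CPM (S45F) and 18.6 CPM (S45P) in the medium clones, and 8.18 to 26.6 CPM in the strong clones. The weak clones lay above all others, on counts of 16 to 62 per library. The log2 change between strong and weak clones was −1.25 ± 0.27 (adjusted p = 0.0014), and the call held when any 1 clone was left out. Its paralog Lin28a did not pass: it was at 188 to 258 CPM in weak, 188 to 245 CPM in medium and 152 to 235 CPM in strong clones, and the log2 change was −0.23 ± 0.14 (adjusted p = 0.239). Whether the 2 genes differed in response was not tested.

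Sox2 was at 619 (S45C), 517 (T41N) and 310 CPM (T41S) in the weak clones, 826 and 707 CPM (S45F) and 664 CPM (S45P) in the medium clones, and 469 to 707 CPM in the strong clones. The medium clones were the highest class and did not overlap the weak ones. Between medium and weak clones, where 11% of all genes were called (3.66% higher, 7.29% lower in medium clones), Sox2 changed by 0.61 ± 0.18 (adjusted p = 0.0348), next to Dppa5a and Tdh, so 3 of 10 members were called. The call was lost without T41S clone H8 (0.37, adjusted p = 0.279), without S45F clone C1 (0.54, adjusted p = 0.127) and without S45F clone D9 (0.65, adjusted p = 0.069). With counts summed per mutation, neither Sox2 (adjusted p = 0.067) nor Tdh (adjusted p = 0.053) passed between these classes, and Dppa5a was the 1 member that did. Between strong and weak clones the change of Sox2 was 0.31 ± 0.15 (adjusted p = 0.129).

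Sall4 was at 301 to 448 CPM in weak, 440 to 486 CPM in medium and 357 to 461 CPM in strong clones. It was the member with the least spread over the clones (coefficient of variation 11.7%, beside 4.67% from counting alone). Pou5f1 was at 9.05 to 24.2 CPM in weak, 11.9 to 20.2 CPM in medium and 14.1 to 28.8 CPM in strong clones. Its coefficient of variation of 29.7% stood beside 20.9% from counting alone. The log2 change between strong and weak clones was 0.11 ± 0.11 for Sall4 (adjusted p = 0.493) and 0.36 ± 0.28 for Pou5f1 (adjusted p = 0.359).

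Utf1, which fell steeply with CHIR99021, was at 593 (S45C), 676 (T41N) and 414 CPM (T41S) in the weak clones, 517 and 648 CPM (S45F) and 659 CPM (S45P) in the medium clones, and 392 to 563 CPM with a median of 426 CPM in the strong clones. T41S clone H8 lay within the range of the strong clones, and the classes overlapped. The log2 change between strong and weak clones was −0.30 ± 0.13 (adjusted p = 0.088). Without T41S clone H8 it was −0.48 (adjusted p = 0.019). Dppa2 was at 70.0 to 166 CPM in weak, 117 to 135 in medium and 73.7 to 150 CPM in strong clones, and Dppa4 at 211 to 395, 313 to 363 and 283 to 364 CPM. In both genes the weak class alone spanned more than the medium class and held both the lowest and highest clone of all 15. The log2 changes were 0.085 ± 0.21 (adjusted p = 0.80) and 0.053 ± 0.13 (adjusted p = 0.806), and both turned negative without T41S clone H8, to −0.22 and −0.17.

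Between strong and medium clones edgeR called 0 of the 10 members, against 4.51% of all genes (2.13% higher, 2.37% lower in strong clones). At an unadjusted p under 0.05 there were 2, Utf1 (log2 change −0.41 ± 0.13, adjusted p = 0.070) and Dppa5a (0.39 ± 0.14, adjusted p = 0.0998). DESeq2 also called 0, and edgeR without a filter on low counts called 2, namely these.

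Where a mutation had 2 clones, the clones could be set against each other. These mutations were S37F, T41A and T41I of the strong class and S45F of the medium class. Each weak mutation had 1 clone, so spread between weak clones of the same mutation was not measured. Values over all 15 clones include the weak ones and the differences between classes. For Tdh, the standard deviation between clones with the same mutation was 0.14 on the log2 scale over 4 pairs, against 0.43 over all 15 clones, and for Dppa5a it was 0.18 against 0.59. For Sall4 the values were 0.049 and 0.18. Dppa2 (0.29 against 0.35) and Lin28a (0.19 against 0.24) varied nearly as much between clones of the same mutation as over all clones. The largest gap within a pair for Dppa2 was between T41I clones B9 and A6, at 150 and 97.7 CPM.

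Markers of other cell types were not even over the classes. The 5 trophectoderm markers, nearly all of it Krt8, summed to 523 to 1786 CPM in weak clones, 74.3 to 301 in medium and 84.3 to 206 CPM in strong ones, with Elf5 at 0 in most libraries. The 4 fibroblast markers summed to 51.3 to 154, 4.59 to 18.6 and 4.13 to 15.8 CPM, and the 5 neural markers, of which Neurog2 had 1 count in the series, to 125 to 216, 91.0 to 132 and 20.1 to 88.4 CPM. Endoderm and mesendoderm lists did not follow this order. The 5 primitive endoderm markers summed to 20.2 to 41.8 CPM in weak, 2.66 to 20.2 in medium and 7.76 to 195 CPM in strong clones, and the 6 mesendoderm markers to 22.2 to 78.5, 16.3 to 29.3 and 25.6 to 125 CPM. The 6 ES cell markers Pou5f1, Sox2, Nanog, Zfp42, Esrrb and Fgf4 summed to 890 to 1618 CPM in weak clones and at least 1940 CPM in each medium and strong clone. Their part in the results of Dppa5a, Tdh and Lin28b was not tested.

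Against the untreated unedited libraries, Tdh and Dppa2 were higher in both the weak and the strong clones, Dppa5a was lower in the weak clones and Utf1 was lower in the strong clones. These comparisons share the 2 untreated libraries with each other and with the dose series. In weak clones 3 of 10 members were called against 30.9% of 11018 genes tested, and in strong clones 3 of 10 against 32.0%, so the count of members was near that of all genes. Every clone lay above both untreated libraries for 14.6% and below them for 10.0% of the 7091 genes of at least 20 CPM. Sox2 in weak clones did not pass (−0.45, adjusted p = 0.088), and it did pass without a filter on low counts (−0.47, adjusted p = 0.029), with the mitochondrial share as a covariate (−0.93, adjusted p = 0.012) and without S45C clone D3 (−0.67, adjusted p = 0.016). Nothing in the labels matches clones and unedited cells by culture, and editing, cloning and mutation cannot be told apart.

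Tdh was at 286 and 307 CPM in the untreated libraries and at 370 to 1271 CPM in the 15 clones. It was 3.38-fold higher in strong clones (log2 change 1.76 ± 0.22, adjusted p = 4.8e-06) and 2.07-fold higher in weak clones (1.05 ± 0.23, adjusted p = 0.0017). The highest value in the dose series was 542 CPM, below every clone except T41S clone H8 at 370 CPM. Dppa2 was at 44.0 and 41.5 CPM in the untreated libraries and at 70.0 to 166 CPM in the clones. The log2 change was 1.42 ± 0.26 in strong clones (adjusted p = 0.00033) and 1.32 ± 0.30 in weak clones (adjusted p = 0.0022). With the mitochondrial share as a covariate these became 0.79 (adjusted p = 0.156) and 0.75 (adjusted p = 0.138). This share does not overlap between clones and unedited cells, so such a fit cannot separate it from group, here or for Sox2 and Utf1. Dppa2 fell with CHIR99021 and was higher in the clones, whereas Tdh rose with CHIR99021 and was higher in the clones.

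Dppa5a was at 833 and 935 CPM in the untreated libraries, above the weak clones (256 to 388 CPM) and within the range of the strong ones (724 to 1086 CPM). The log2 change was −1.44 ± 0.18 in weak clones (adjusted p = 7.0e-06) and −0.042 ± 0.15 in strong clones (adjusted p = 0.857). Utf1 was at 602 and 626 CPM in the untreated libraries, above all 9 strong clones. Its log2 change was −0.46 ± 0.15 in strong clones (adjusted p = 0.0174) and −0.18 ± 0.18 in weak clones (adjusted p = 0.470). Leaving out either untreated library ended the call in strong clones (−0.50, adjusted p = 0.102 without replicate 1 and −0.46, adjusted p = 0.122 without replicate 2), as did the mitochondrial share as a covariate (−0.67, adjusted p = 0.072). At 10 µM CHIR99021 Utf1 was at 219 and 178 CPM, beside 392 to 676 CPM in the 15 clones.

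**Figure D3:**
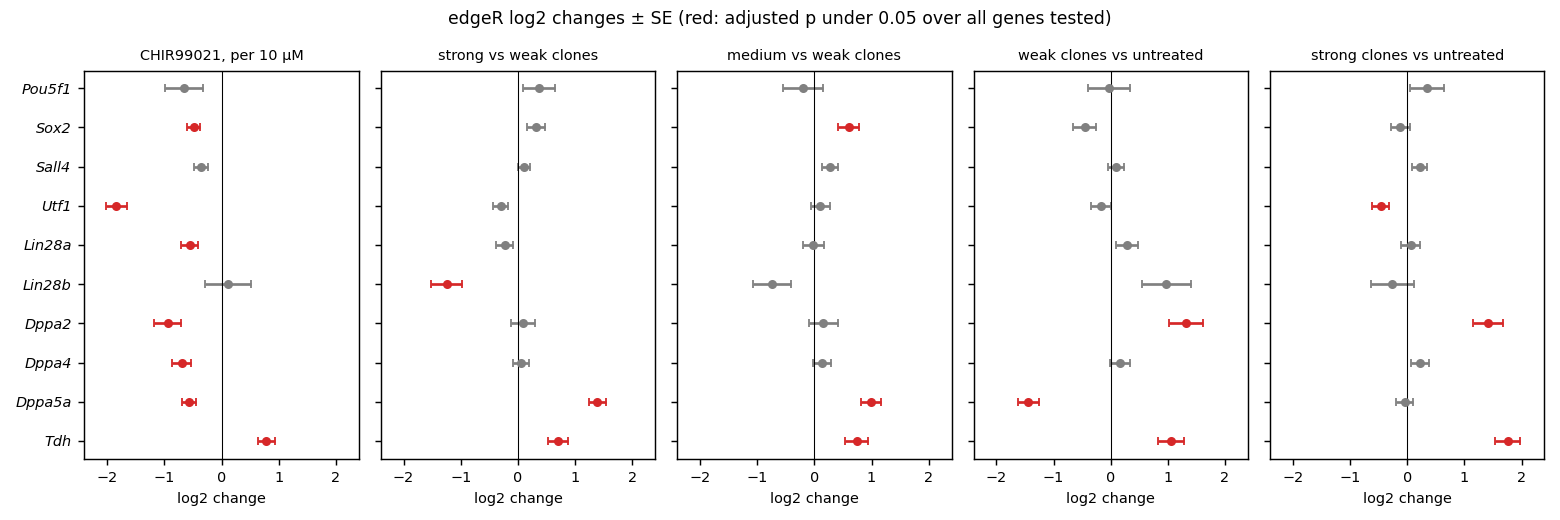
Log2 change with its standard error (x axis) for each of the 10 genes (y axis) in 5 comparisons, with adjusted p under 0.05 in red. The dose slope is drawn per 10 µM. Utf1 at −1.84 per 10 µM is the largest change of these genes with dose, and Tdh at 1.76 in strong clones against untreated is the largest rise.

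In the 10 unedited libraries the 6 genes that fell with dose varied together, with Pearson r of log2(CPM + 1) between 0.65 and 0.97 over their 15 pairs, and r of Tdh with them lay between −0.95 and −0.78. In the 15 clones the same 15 pairs had r between −0.43 and 0.80, and Tdh with them between −0.030 and 0.73. The genes were picked by their dose slopes in these same 10 unedited libraries, so the signs of r there follow from that choice. No such choice was made in the clones, and the difference in r was not tested. The r values describe libraries that share doses and clones that share classes. The genes most like each member over all 25 libraries, among 7091 with a mean of at least 20 CPM, were Uchl1, Hmgb2 and Cdc20 for Utf1 (r 0.93, 0.91 and 0.89) and Bcat1, Dus1l and Shmt1 for Tdh (r 0.94, 0.91 and 0.91), where r of Shmt1 was 0.17 within the unedited libraries. For Dppa5a they were Fmc1, Tcl1 and H2afv (r 0.92, 0.91 and 0.90), and Tcl1, a naive marker, had r 0.87 within the unedited libraries and 0.94 within the clones. For Dppa2 they were Trim28, Rif1 and Etf1 (r 0.96 each), where r of Etf1 was 0.15 within the unedited libraries. For Dppa4 they were Dnmt3l, Slc7a3 and Lyar (r 0.94, 0.93 and 0.93), for Sox2 Gsta4, Spp1 and Msh6 (r 0.84, 0.82 and 0.81), for Sall4 Ltbp4, Zscan10 and Pprc1 (r 0.94, 0.92 and 0.88), and for Lin28a Dut, Dusp27 and Clns1a (r 0.94, 0.93 and 0.92). Clones and unedited cells form separate groups of libraries, and pooled r over them includes that gap.

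Genes listed with the members by role are given as counts against the shares above. Of 16 other genes shared between pluripotent states, 10 fell with CHIR99021 and 0 rose, with a median slope of −0.068. Among those were Fgf4, the growth factor that drives exit from self-renewal, from a mean of 330 to 131 CPM at 10 µM, L1td1 from 126 to 46.0 CPM, Sall1 from 99.7 to 29.4 CPM and Fbxo15 from 75.1 to 31.0 CPM. Between strong and weak clones 4 of these 16 were higher and 0 lower, Fgf4 among them at 163 against 94.0 CPM.

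Of 11 naive pluripotency genes tested with dose, 3 rose and 6 fell, so that the list did not move one way. Tbx3 rose to 122 CPM at 10 µM, and Dppa3, Tcl1 and Nr0b1 fell, Tcl1 from 98.4 to 47.6 CPM. In strong against weak clones 10 of 12 were higher and 0 lower, for example Tfcp2l1 (1067 against 240 CPM) and Klf4 (797 against 213 CPM). Of 8 primed genes, 3 passed the filter on low counts in the dose series and 6 in the clones, some of them through the groups where they were high, so that no count of calls is given. Pou3f1 was at 61.6 CPM without inhibitor, 12.2 CPM at 10 µM, 144 CPM in weak and 11.6 CPM in strong clones. Dnmt3b, a de novo DNA methyltransferase, was at 137, 83.6, 421 and 145 CPM in the same groups, and Dnmt3a at 55.9, 29.6, 59.9 and 30.3 CPM. The primed genes did not all move one way. Foxd3 was at 6.99, 5.15, 33.6 and 53.6 CPM in these groups. Zic2, with a mean of 3.57 CPM over all libraries, was also higher in strong than in weak clones (log2 change 6.07), whereas Otx2 was lower (−1.39).

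**Figure D4:**
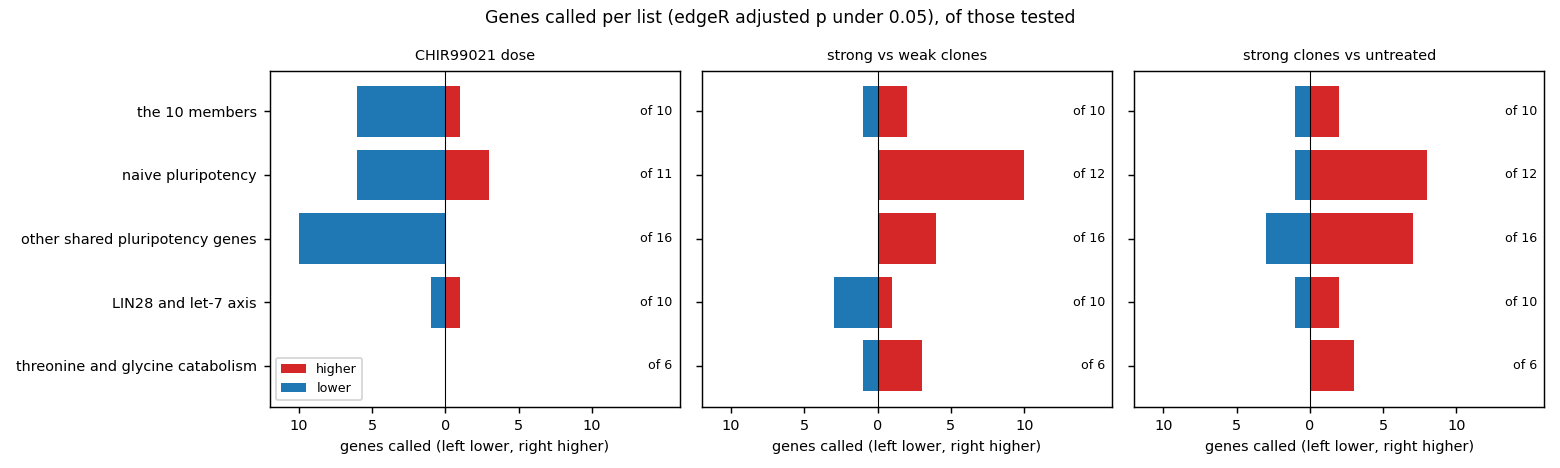
Number of genes called higher (right, red) and lower (left, blue) per list in 3 comparisons, by edgeR at an adjusted p under 0.05, with the number tested at the right. With CHIR99021 dose 10 of 16 other shared pluripotency genes were lower and 0 higher, and between strong and weak clones 10 of 12 naive genes were higher and 0 lower.

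In the LIN28 and let-7 axis, 1 of 10 genes rose and 1 fell with dose: Hmga2, a classical let-7 target, from 26.8 to 78.1 CPM and Mycn, another one, from 116 to 48.8 CPM. Between strong and weak clones 3 of 10 were lower and 1 higher. Hmga2 (36.5 against 116 CPM), Mycn (94.4 against 314 CPM) and Igf2bp1 (834 against 1094 CPM) were lower and Trim71 was higher (663 against 514 CPM). The share called, 4 of 10, stands beside 29.8% of all genes, and 3 of 10 lower beside 16.6%.

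For Tdh, the next enzyme of threonine breakdown (Gcat), the glycine cleavage genes (Gldc, Amt, Gcsh and Dld) and Shmt2 were listed. With dose edgeR called 0 of 6 (12.5% of all genes were called), also at an unadjusted p under 0.05, while Tdh rose. Gcat, which acts on the product of TDH, was at 131 CPM without inhibitor and 167 CPM at 10 µM. Between strong and weak clones 3 of 6 were higher (Shmt2 at 248 against 121 CPM, Gcat at 117 against 61.8 CPM, Amt at 303 against 181 CPM) and Dld was lower (95.1 against 121 CPM). Of all genes, 13.1% were called higher and 16.6% lower in strong clones.

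Of 8 genes of the two-cell embryo that are known to depend on DPPA2 and DPPA4, 0 passed the filter on low counts in the dose series, so none was tested there. In the clones 3 did, mainly through the strong class in which they were high, and their calls are therefore not given. Zscan4c had 3 counts in the 2 untreated libraries together, 18 in the 3 weak, 19 in the 3 medium and 310 in the 9 strong clones. Its median was 1.08, 8.07, 5.32 and 22.0 CPM in these groups, and strong clones ranged from 0 to 54.3 CPM. Zscan4d had 2, 9, 21 and 211 counts, with medians of 1.06, 4.53, 7.53 and 14.4 CPM, and ranged from 0 to 34.9 CPM in the strong clones. Tmem92 had 5, 1, 1 and 75 counts. These totals cover unlike numbers of libraries. They were named after their values were seen.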

How the data were processed

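RNA was counted in 25 libraries of E14 cells. The authors trimmed reads with Cutadapt, removed ribosomal reads with SortMeRNA, aligned to mm10 with STAR, removed duplicates with UMI-tools and Picard, and deposited raw UMI counts per gene from featureCounts 2.0.1, with no normalization. Annotation release and strand setting are not given in the sources used here. Symbols came from GENCODE M21, in which 48058 of 48440 identifiers were found.

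CPM used total counts. Models were edgeR 4.0.16 (R 4.3.3, quasi-likelihood, two-sided, TMM factors, genes kept by filterByExpr at 10 counts, adjusted p under 0.05 over all genes tested). Clones entered 1 fit, with the 2 untreated libraries added for comparisons with unedited cells. DESeq2 1.42.0, RLE, no filter, thinned counts, a replicate block, mitochondrial share as a covariate, ranks or classes as numbers, counts summed per mutation and leaving out each library were alternatives. Fits within libraries of a mitochondrial share above or below 0.8% were added after seeing the data. Fits were tested on simulated data. Near-identical transcripts were searched with BLAST 2.17.0.

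The 10 members, the 6 lists and the marker lists were chosen with earlier results of these data known. Named genes were the members, for each member with a mean of at least 20 CPM the 3 genes with the highest r over the 25 libraries, and, per list and comparison, up to 4 called genes of at least 20 CPM with the largest log2 change. Intervals and floors cover counting error only (95%, 3 counts).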

Additional observations from a re-analysis of the deposited data

How the results depend on the processing

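Of 436 results for single members under settings other than leaving out a library, 405 kept their direction and their side of the threshold. Members that fell below the filter on low counts in a setting gave no result and are not counted. Of 890 results with 1 library left out, 842 kept both. Causes were not tested, except that thinned counts and fewer libraries hold less data. Pou5f1 and Lin28b had the fewest counts. Over the clones, counting alone gives a coefficient of variation of 20.9% beside the 29.7% seen for Pou5f1. For Lin28b it gives 22.4% beside 46.0%. These values do not add, so their difference is not the remaining spread. Replicate numbers did not pair the libraries consistently: deviations of same-numbered libraries at different doses correlated between −0.21 and 0.17 (median 0.0074), with 7 of 10 pairs at or below 0.1. Replicate 1 at 2.5, 5 and 10 µM, of lower mitochondrial share and depth, correlated at 0.14 to 0.17 among themselves. With replicate 1 at 0 µM, of higher share, they correlated at −0.21 to −0.17. A block on replicate number does not model such a split. With the replicate block all 60 results for single members kept direction and call, and the dose fit called 7 members as before.

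Thinning counts to the smallest library left 288 genes called with dose (1256 in full), 1888 between strong and weak clones (3110), 589 between medium and weak (1145), 300 between strong and medium (471), 2078 between weak clones and untreated (3401) and 1909 between strong clones and untreated (3522). Members called with dose then numbered 4. The 4 libraries of lower mitochondrial share, which are also the shallowest unedited ones, gave 140 genes and 2 members. With the mitochondrial share as a covariate, 1699 genes were called between weak clones and untreated, and 562 genes and 1 member between strong clones and untreated. In these fits share and group cannot be separated, since the share does not overlap between clones and unedited cells. Between strong and medium clones 739 genes and 2 members were called without a filter and 240 genes with counts summed per mutation, which left 1 member between medium and weak clones.

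Reversals concerned members that did not pass. The Lin28b dose slope was −0.022 with the mitochondrial covariate and −0.029 in the 6 libraries of higher share, and the change between 10 and 0 µM was −0.25. Lin28a between medium and weak clones was at 0.028 without a filter, 0.032 thinned and 0.041 summed per mutation. Pou5f1 between weak clones and untreated was at 0.74 thinned. With the mitochondrial covariate Sall4 and Dppa4 in weak clones against untreated were at −0.046 and −0.017, and Lin28a in strong clones at −0.086.

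Leaving out 1 library gave 527 (without untreated replicate 1; 779 without replicate 2) to 1325 genes and 4 to 8 members called with dose. It gave 1653 (without T41S clone H8) to 3264 genes between strong and weak clones. Between medium and weak clones it gave 276 (without T41S clone H8; 646 and 687 without S45F clones D9 and C1) to 1433 genes and 1 to 3 members. Between strong and medium clones it gave 106 (without S45F clone D9) to 811 genes (without T41I clone A6) and 0 to 1 members, with 128 to 311 genes without S45P clone G5, S45F clone C1, S37A clone A10, S37C clone G12 or T41A clone C1. Against untreated it gave 1672 to 3479 genes for weak and 1268 to 3748 for strong clones, lowest without untreated replicate 1 and next without replicate 2 (2218 and 1846). Changes of sign were limited to log2 ranges of −0.025 to 0.11 for Lin28b with dose, and between strong and weak clones to −0.036 to 0.24 (Sall4), −0.22 to 0.47 (Dppa2) and −0.17 to 0.28 (Dppa4). Between medium and weak clones the ranges were −0.44 to 0.041 (Pou5f1), −0.059 to 0.28 (Utf1), −0.091 to 0.13 (Lin28a), −0.14 to 0.56 (Dppa2) and −0.082 to 0.37 (Dppa4), and for Tdh between strong and medium clones −0.15 to 0.0021. In weak clones against untreated they were −0.20 to 0.22 (Pou5f1), −0.021 to 0.24 (Sall4), −0.32 to 0.0021 (Utf1) and −0.059 to 0.38 (Dppa4). In strong clones against untreated they were −0.85 to 1.40 (Lin28b) and −0.13 to 0.021 (Dppa5a).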
